A study of Mus musculus with 4 samples.

Results

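The transcripts described here encode the receptors, ligands and core effectors of the Notch pathway: the receptors Notch1, Notch2 and Notch3, the ligands Jag1, Jag2, Dll1 and Dll4, the DNA-binding factor Rbpj, its coactivator Maml1 and the target repressor Hes1. They were chosen by gene symbol, and all 10 of them were found among the 51509 genes listed in the count table and passed the filter on low counts. Expression was measured by RNA sequencing in cultured epithelial organoids derived from the intestine of C57BL/6 mice, wild type and 8 to 12 weeks old. All organoids had been irradiated with 8 Gy and were harvested 36 hours later, after SGC-CBP30 (2 libraries) or vehicle (2 libraries), and no unirradiated organoids were analysed here. SGC-CBP30 is a small molecule that occupies the acetyl-lysine binding bromodomains of the histone acetyltransferases CBP and p300. In its treatment label, SGC-CBP30 replicate 2 reads SGC-CBP31, and its title and the stated group size place it with SGC-CBP30. Values without it are therefore given where they change the call of one of the 10 Notch genes. For the wider lists of genes further below they are given only in part. The labels do not say whether replicates are separate cultures or animals, so the p-values reflect only how far these libraries spread, and that spread may be technical. They give neither the intestinal region nor the number of mice behind a library.

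Notch signalling passes between touching cells. A ligand of the Delta or Jagged family on one cell binds a Notch receptor on its neighbour, the receptor is cut by an ADAM protease and then by gamma-secretase, and the freed intracellular domain joins RBPJ on DNA and recruits a Mastermind-like coactivator, which in turn binds CBP and p300. In the intestinal crypt, Notch activity maintains stem cells and directs progenitors to the absorptive fate through HES1, which represses the secretory fate factor ATOH1, while Paneth and other secretory cells carry the Delta ligands.

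The promoter windows of the genes show where RBPJ's recognition core could be read and how the receptor genes that moved apart are built. RefSeq windows (GRCm38.p6) from 250 bases before to 50 bases after a transcription start were available for 9 of the 10 genes, 11 windows in all, and not for Hes1. The RBPJ core TGGGAA, searched on both strands and so also as TTCCCA, occurred in 2 windows, both of Rbpj itself and overlapping each other, against 25.6% of 32851 windows of the same length. The longer form GTGGGAA, which contains the core, was in none of the 11 windows and in 6.38% of all. The GC box GGGCGG, a motif bound by Sp-family factors, was searched on both strands after the windows had been seen. It occurred in 7 of the 11 windows and in 35.7% of all, and its copies share no bases with the RBPJ core. The 11 windows held 55.7% to 86% G and C, against a median of 52.7% over all windows. Jag2 and Notch3, whose changes did not pass the threshold given below, held 5 and 4 copies. Jag1 and both windows of Dll1, genes whose changes passed it, held 0. Maml1, which passed, and Dll4, which did not, held 2 each, and the Rbpj windows held 0 and 1. A match or its absence describes the letters of these windows only. The upstream Rbpj window is printed because it holds the core on both strands, in capitals (chr5:53590096-53590395, plus strand). The Notch1 window (chr2:26503773-26504072, minus strand) and the Notch2 window (chr3:98013288-98013587, plus strand) belong to the receptors that changed in opposite directions, and capitals mark their GC boxes, 5 in Notch1 and 7 in Notch2.
Rbpj: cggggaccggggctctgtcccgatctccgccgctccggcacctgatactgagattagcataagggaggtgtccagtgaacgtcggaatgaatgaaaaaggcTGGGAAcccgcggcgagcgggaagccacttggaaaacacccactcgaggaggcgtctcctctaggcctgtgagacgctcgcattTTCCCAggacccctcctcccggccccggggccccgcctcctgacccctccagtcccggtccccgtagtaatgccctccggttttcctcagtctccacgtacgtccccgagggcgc
Notch1: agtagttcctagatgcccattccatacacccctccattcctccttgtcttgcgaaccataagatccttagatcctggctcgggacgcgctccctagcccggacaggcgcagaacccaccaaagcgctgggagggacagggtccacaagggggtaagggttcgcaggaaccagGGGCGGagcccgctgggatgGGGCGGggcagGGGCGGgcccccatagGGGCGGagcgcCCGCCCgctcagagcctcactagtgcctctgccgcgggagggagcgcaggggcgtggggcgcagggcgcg
Notch2: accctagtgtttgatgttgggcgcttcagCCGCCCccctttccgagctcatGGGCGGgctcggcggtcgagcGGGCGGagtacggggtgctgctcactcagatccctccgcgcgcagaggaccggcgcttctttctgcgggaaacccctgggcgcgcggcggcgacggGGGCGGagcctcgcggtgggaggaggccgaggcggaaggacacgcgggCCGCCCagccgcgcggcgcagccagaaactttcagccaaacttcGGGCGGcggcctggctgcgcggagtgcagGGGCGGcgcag

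The libraries held 16674571 and 17076724 counts for SGC-CBP30 and 18087250 and 16433117 for vehicle, and 4401 of 14684 tested genes were called at a Benjamini-Hochberg adjusted p under 0.05 in edgeR's quasi-likelihood test, 2004 higher and 2397 lower. Scaling by library totals turned that split to 2907 higher and 1924 lower. The epithelial identity of the cultures was checked on 7 markers, which together took 146693 to 152829 counts per SGC-CBP30 library and 113814 to 125765 per vehicle library, while 23 markers of mesenchyme and mural cells, endothelium, immune cells, nerve and glia together took 151 to 159 counts per SGC-CBP30 library and 224 to 277 per vehicle library. The pan-leukocyte gene Ptprc had at most 7 counts in a library, and the glial gene Sox10 had 0 in all 4. Of the 7 non-epithelial markers that passed the filter 3 fell (Rgs5, Csf1r and S100b), 42.9% against 16.3% of all tested genes. S100b, at 6 and 7 counts with SGC-CBP30 and 22 and 23 with vehicle, passed the filter through its vehicle libraries. Col3a1, at 16 and 7 counts with SGC-CBP30 and 1 and 1 with vehicle, stayed under it. That share thus depends in part on the filter. The part of the non-epithelial markers in the values below was not tested. Counts are from whole organoids, in which fewer cells of a type and less RNA per cell cannot be told apart.

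Of the 10 Notch genes 5 changed with SGC-CBP30: Notch1, Jag1 and Dll1 fell, Notch2 and Maml1 rose, and Notch3, Jag2, Dll4, Rbpj and Hes1 did not pass that threshold. The background rate was 30.0% of all tested genes, and 30.7% of the 4828 genes whose mean level lay between those of the lowest and highest of the 10, from 7.16 to 40.2 CPM. By direction, 13.6% of tested genes were called higher and 16.3% lower. CPM are counts scaled to library size with edgeR's TMM factors. The groups did not overlap in 7 of the 10 genes, against 63.1% of tested genes. The log2 fold change, given throughout as SGC-CBP30 over vehicle, had a median of -0.11 over the 10 genes and 0.0096 over all tested genes. Every one of the 5 calls was also made by DESeq2, whose background was 18.8%. The authors' deposited table held the same 5 calls, and 11.4% of its genes with an adjusted p were under 0.05. Its log2 fold changes for the 10 genes nearly equal those of DESeq2 (Notch1 -0.5228 in both), so it is no separate support.

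**Figure D1:**
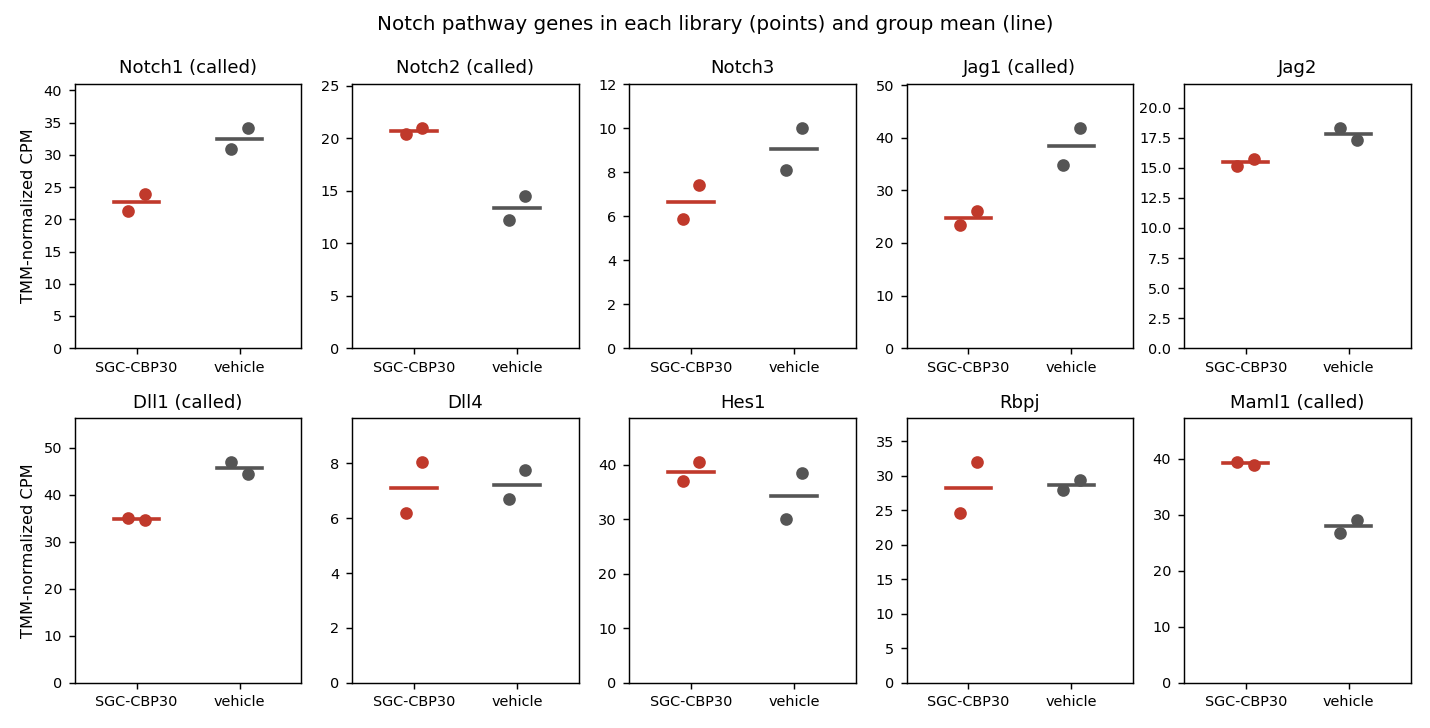
TMM-normalized CPM (vertical axes from 0) of the 10 genes in the SGC-CBP30 libraries (left, red) and vehicle libraries (right, grey), with points for libraries and a line for the group mean; "called" marks an adjusted p under 0.05. Notch1, Jag1 and Dll1 lie lower and Notch2 and Maml1 higher in both SGC-CBP30 libraries than in both vehicle libraries.

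The 2 receptor transcripts with the highest mean levels moved in opposite directions. Notch1 (ENSMUSG00000026923, chromosome 2, 26457903 to 26516663, minus strand), the receptor most closely tied to crypt stem cell maintenance in mice, had 21.3 and 23.9 CPM in SGC-CBP30 libraries, against 30.9 and 34.2 CPM in vehicle libraries. Both SGC-CBP30 libraries lay under both vehicle libraries, and Notch1 was 1.44-fold lower, with a log2 fold change of -0.52 ± 0.11 (SE; edgeR adjusted p = 0.00083). These values rest on 363 and 420 counts with SGC-CBP30 and 545 and 546 with vehicle. The transcript gene 0610009E02Rik, which overlaps Notch1 on the opposite strand over 1488 bases, had 5 and 7 counts with SGC-CBP30 and 10 and 16 with vehicle.

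Notch2 (ENSMUSG00000027878, chromosome 3, 98013527 to 98150361, plus strand), which acts together with Notch1 in crypt progenitors, had 20.5 and 21.02 CPM in SGC-CBP30 libraries, against 12.2 and 14.5 CPM in vehicle libraries. It was thus higher in each SGC-CBP30 library than in either vehicle library, on 348 and 369 counts against 215 and 231. The rise was 1.56-fold, a log2 fold change of 0.64 ± 0.13 (SE; edgeR adjusted p = 0.00064), and in size it exceeded the log2 fold change of 82.9% of tested genes. The 95% intervals of the 2 log2 fold changes, -0.75 to -0.29 for Notch1 and 0.37 to 0.92 for Notch2, lie on opposite sides of 0.

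Notch3, a receptor best known from vascular mural cells, was the lowest of the 3, with 5.88 and 7.40 CPM in SGC-CBP30 libraries and 8.10 and 10.03 CPM in vehicle libraries. The groups did not overlap, but the log2 fold change of -0.44 ± 0.20 (SE) missed the threshold (edgeR adjusted p = 0.0946). Without SGC-CBP30 replicate 2 it passed (-0.62, adjusted p = 0.039). Of the mural cell markers, Pdgfrb did not pass and had 15 and 14 counts with SGC-CBP30 and 16 and 10 with vehicle, and Rgs5 fell and had 15 and 22 with SGC-CBP30 and 83 and 69 with vehicle. Over all 8 mesenchymal and mural markers the summed counts were 51 to 73 with SGC-CBP30 and 88 to 105 with vehicle. Rgs5 made most of the vehicle sum. The collagen genes Col3a1 and Col1a1, under the filter, went the other way. Col3a1 had 16 and 7 counts with SGC-CBP30 and 1 and 1 with vehicle, and Col1a1 9 and 2 against 0 and 0. The part of these markers in the Notch3 values was not tested.

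Scaled to gene length, the make-up of the receptor transcripts differed between the groups. Of the length-scaled signal of the 3 receptors, Notch2 took 46.0% and 42.8% in SGC-CBP30 libraries, against 26.2% and 26.9% in vehicle libraries. Notch1 took 36.3% and 36.9% in SGC-CBP30 libraries, against 50.4% and 48.1% in vehicle libraries. Notch2 thus held the largest share in both SGC-CBP30 libraries and Notch1 in both vehicle libraries, and the ratio of Notch2 to Notch1 was 1.27 and 1.16 with SGC-CBP30 and 0.521 and 0.558 with vehicle. The summed signal of the 3 receptors overlapped between the groups, at 4.13 and 4.55 CPM per kilobase with SGC-CBP30 and 4.30 and 4.99 with vehicle. With 2 libraries per group the two-sided exact permutation p cannot go below 0.33, so shares and ratios carry no test.

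**Figure D2:**
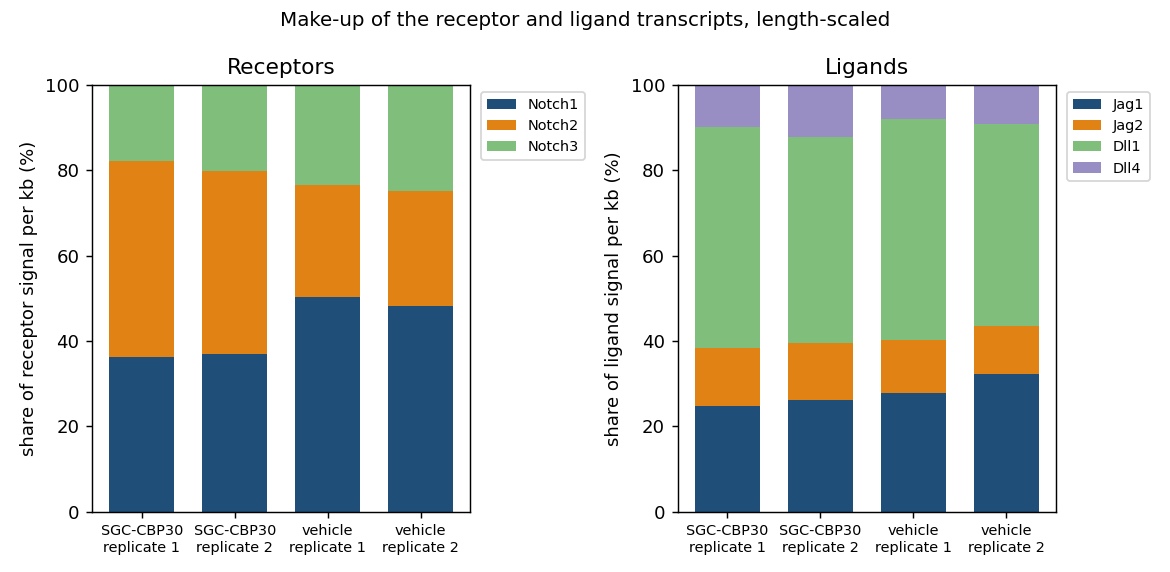
Share of each receptor (left) and each ligand (right) in the length-scaled signal of its family, in percent (vertical axes, 0 to 100), with a bar for each SGC-CBP30 library and then each vehicle library. Notch2 takes 42.8% to 46.0% of receptor signal with SGC-CBP30 and 26.2% to 26.9% with vehicle, while Dll1 stays the largest ligand in all 4 bars.

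Of the 4 ligand genes Jag1 and Dll1 fell and Jag2 and Dll4 did not pass. Jag1 (ENSMUSG00000027276, chromosome 2, 137081456 to 137116644, minus strand), which encodes a Jagged-type ligand, had 23.3 and 26.1 CPM in SGC-CBP30 libraries, against 34.8 and 41.9 CPM in vehicle libraries. No SGC-CBP30 library reached the lower of the vehicle libraries, and Jag1 was 1.55-fold lower, with a log2 fold change of -0.63 ± 0.11 (SE; edgeR adjusted p = 0.0001). It had the smallest p of the 10 genes.

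Dll1 (ENSMUSG00000014773, chromosome 17, 15367354 to 15376872, minus strand), a Delta-type ligand carried by secretory progenitors, had 35.1 and 34.6 CPM in SGC-CBP30 libraries, against 46.8 and 44.4 CPM in vehicle libraries. The groups were well apart and the libraries of each group close together. The log2 fold change was -0.39 ± 0.09 (SE; edgeR adjusted p = 0.0022), a level 1.31-fold lower. The long noncoding gene A930024N18Rik overlaps Dll1 on the opposite strand over 1873 bases and had 13 and 29 counts with SGC-CBP30 and 29 and 36 with vehicle, against 597 to 827 counts of Dll1 itself; whether counting used strand is not given in the sources used here.

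Jag2, the second Jagged ligand gene, had 15.2 and 15.8 CPM in SGC-CBP30 libraries, against 18.3 and 17.4 CPM in vehicle libraries. Its groups did not overlap, yet the log2 fold change of -0.21 ± 0.13 (SE) missed the threshold (edgeR adjusted p = 0.251). Dll4, which acts alongside Dll1 in the mouse crypt, had 6.17 and 8.03 CPM in SGC-CBP30 libraries and 6.68 and 7.77 CPM in vehicle libraries, so the groups overlapped fully. Its log2 fold change was -0.022 ± 0.20 (SE; edgeR adjusted p = 0.954), with a 95% interval of -0.44 to 0.40 that leaves room for a change as large as that of Dll1, and whether these 2 ligands differ in response was not tested. At 105 to 141 counts per library Dll4 was among the thinnest measured of the set. Gm14207, on the opposite strand, overlaps it over 411 bases with 22 to 38 counts with SGC-CBP30 and 16 to 32 with vehicle.

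The summed length-scaled signal of the 4 ligands was lower with SGC-CBP30, and the groups did not overlap. It was 16.1 and 17.0 CPM per kilobase in SGC-CBP30 libraries, against 21.4 and 22.2 in vehicle libraries. The make-up differed less than that of the receptors. Dll1 took 51.7% and 48.2% of ligand signal with SGC-CBP30 and 51.8% and 47.4% with vehicle, and Jag1 took 24.9% and 26.3% with SGC-CBP30 and 27.9% and 32.4% with vehicle.

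Among the nuclear effectors Maml1 (ENSMUSG00000050567, chromosome 11, 50255634 to 50292311, minus strand), the Mastermind-like coactivator that ties the Notch and RBPJ complex to CBP and p300, rose, with 39.3 and 39.0 CPM in SGC-CBP30 libraries, against 26.7 and 29.1 CPM in vehicle libraries. The SGC-CBP30 libraries were nearly equal and both above the vehicle libraries. The rise was 1.40-fold, a log2 fold change of 0.49 ± 0.10 (SE; edgeR adjusted p = 0.00059). An antisense gene, Gm26542, spans 33206 bases of Maml1 but had 4 to 6 counts with SGC-CBP30 and 10 to 19 with vehicle.

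Rbpj, the DNA-binding factor on which Notch signals converge, had 24.6 and 32.0 CPM in SGC-CBP30 libraries and 28.0 and 29.5 CPM in vehicle libraries. The vehicle values fell between the SGC-CBP30 values, and the log2 fold change was -0.020 ± 0.12 (SE; edgeR adjusted p = 0.927) with a 95% interval of -0.27 to 0.23. Its sign turned in 3 of 10 alternative settings. The SGC-CBP30 replicates differed by 1.297-fold, with a 95% counting interval of 1.14 to 1.48, so they lay further apart than counting error alone gives.

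Hes1, the repressor that is the main Notch target of the crypt, had 37.1 and 40.4 CPM in SGC-CBP30 libraries and 30.1 and 38.5 CPM in vehicle libraries. The groups overlapped, and the log2 fold change of 0.18 ± 0.11 (SE; 95% interval -0.048 to 0.40) missed the threshold (edgeR adjusted p = 0.243). The result turned on vehicle replicate 2: without that library Hes1 passed, with a log2 fold change of 0.37 (adjusted p = 0.0431), and without vehicle replicate 1 the log2 fold change was 0.0076. The vehicle replicates differed by 1.28-fold (95% counting interval 1.14 to 1.44). Over the set, 4 of 20 such replicate pairs differed by more than the counting interval allows, those of Hes1 and Jag1 in vehicle and of Rbpj and Dll4 with SGC-CBP30.

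**Figure D3:**
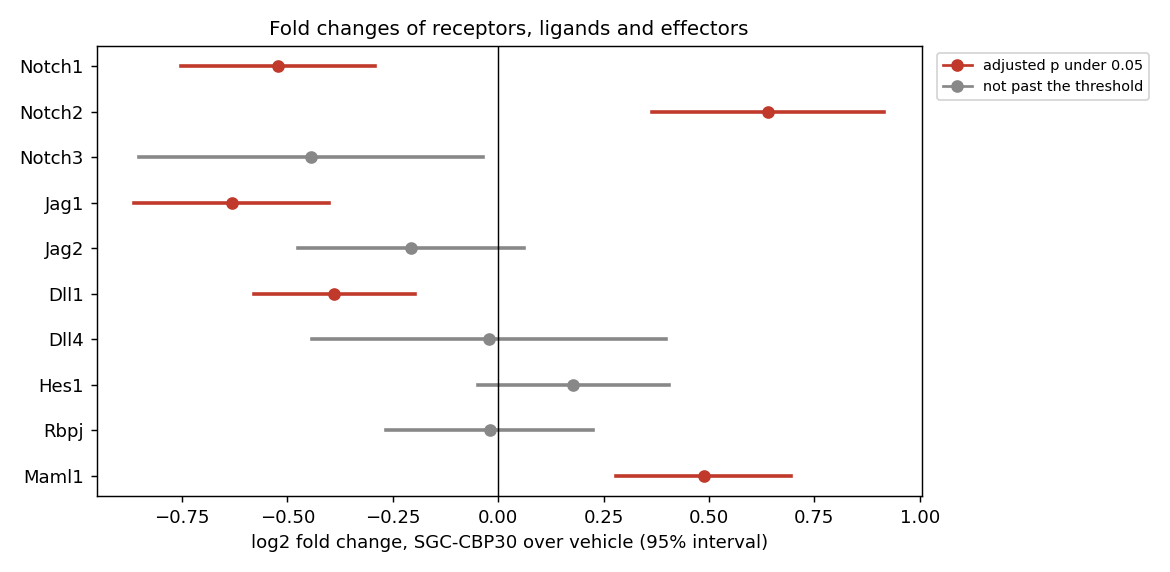
Log2 fold change, SGC-CBP30 relative to vehicle (horizontal axis) with its unadjusted 95% interval for the 10 genes, by role from receptors at the top to nuclear effectors at the bottom; red marks an adjusted p under 0.05. Notch2 at 0.64 and Maml1 at 0.49 lie right of 0, and Jag1 at -0.63, Notch1 at -0.52 and Dll1 at -0.39 lie left of it.

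Levels of different genes were compared as CPM per kilobase of the gene length the authors deposited, which spans all annotated exons and so understates genes expressed as a short isoform. Averaged over the 4 libraries, Hes1 was highest at 17.9 CPM per kilobase, 18.4 times the level of Notch3, the lowest at 0.976. Dll1 followed at 9.54, Maml1 at 6.07 and Jag1 at 5.41. Jag2, Rbpj, Notch1, Dll4, Notch2 and Notch3, in that order, ran from 2.39 down to 0.976. Because several of these genes changed, neighbours in the order were compared within each group. With SGC-CBP30, Maml1 (7.05 to 7.11) stood above Jag1 (4.005 to 4.48), and with vehicle Jag1 (5.98 to 7.20) stood above Maml1 (4.84 to 5.27), in both groups without overlap. Notch1 stood at rank 9 with SGC-CBP30 and 6 with vehicle, and Notch2 at rank 7 with SGC-CBP30 and 9 with vehicle. The neighbours whose ranges overlapped, and which so did not differ beyond their spread, were those from Jag2 through Rbpj, Notch2 and Dll4 to Notch1 with SGC-CBP30, and Notch1 with Rbpj and Notch2 with Notch3 with vehicle.

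The genes whose profile over the 4 libraries lay closest to that of a called Notch gene were named by a fixed distance, over 8952 other protein-coding genes of mean log2 CPM of at least 3. Nearest to Maml1 were Fhdc1, Cpq and Ehd4, at Euclidean distances of 0.014, 0.022 and 0.023 in centred log2 CPM. Nearest to Jag1 were Duox2, mt-Co3 and Exosc9, at 0.04, 0.051 and 0.062. With 4 libraries in 2 groups such closeness mostly repeats a similar fold change.

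Around these genes, 89 further genes of the pathway, its modifiers and its intestinal fate genes were listed by role, of which 75 passed the filter. Of the 75, 13 rose, 14 fell and 48 did not pass, 36% called against 30.0% of all tested genes, and their median log2 fold change was 0.11. Scaling by library totals gave 23 higher and 13 lower, 48% against 32.9% of all tested genes in that setting. DESeq2 called 14, 4 higher and 10 lower, which is 18.7% against 18.8% of all genes in that test. Without vehicle replicate 1 or vehicle replicate 2 fewer were called, and more of those were lower than higher. The same was seen over all tested genes. For each role group the same 30.0% is the background of the main fit only. That of DESeq2 is 18.8% and that of library totals 32.9%. The other settings have backgrounds of their own, and those without a vehicle library are lower than 30.0%.

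The other receptor and ligand genes were close to the filter. Notch4, Dlk1 and Dner were tested and the highest count of any of the 6 listed genes was 39 in a library. EdgeR's quasi-likelihood test called 0 of the 3, as did DESeq2, and 0 had an unadjusted p under 0.05. Dner, a Delta-like transmembrane protein gene, had the smallest p, with 25 and 20 counts with SGC-CBP30 and 21 and 37 with vehicle, and its log2 fold change of -0.42 ± 0.44 (SE) turned to 0.13 without vehicle replicate 2.

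Of 7 genes that glycosylate the receptor or its ligands 2 fell and 5 did not pass, 28.6% called against 30.0% of all tested genes, with a median log2 fold change of 0.19. With library totals 2 genes were higher and 1 lower, and without SGC-CBP30 replicate 1 the 2 genes called were both higher. Those that fell were Lfng, the Fringe enzyme that tunes ligand choice, at 14 and 23 counts with SGC-CBP30 and 40 and 42 with vehicle (log2 fold change -1.19 ± 0.41, SE), and Pofut1, the O-fucosyltransferase of Notch repeats, at 50.6 and 53.8 CPM with SGC-CBP30 and 67.1 and 56.3 CPM with vehicle (-0.24 ± 0.09). Neither call was made by DESeq2. Lfng did not pass when any of 3 libraries was left out, vehicle replicate 1 (adjusted p = 0.0546), vehicle replicate 2 (0.149) or SGC-CBP30 replicate 1 (0.165), and Pofut1 did not pass without vehicle replicate 1 (0.604, log2 fold change -0.11), SGC-CBP30 replicate 1 (0.0629) or with library totals (0.157).

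Of 9 cleavage genes 2 rose and 7 did not pass, with a median of 0.12, and 22.2% were called, against 30.0% of all tested genes. Adam10, the protease of the first cut, had 152 and 158 CPM with SGC-CBP30 and 123 and 139 CPM with vehicle, a log2 fold change of 0.25 ± 0.07 (SE), but without vehicle replicate 1 it did not pass (0.16, adjusted p = 0.34). The gamma-secretase subunit gene Aph1b had 73 and 97 counts with SGC-CBP30 and 55 and 38 with vehicle (0.83 ± 0.28), and it did not pass when vehicle replicate 2 (adjusted p = 0.153) or SGC-CBP30 replicate 2 (0.184) was left out, nor in DESeq2 (0.154). With library totals 4 of the 9 were higher.

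Of 13 tested genes of ubiquitin ligases and trafficking 4 rose, 4 fell and 5 did not pass, 61.5% called against the background of 30.0%, with a median of 0.0058. Neurl1b, a Neuralized-type ligase that acts on ligands, had 36.3 and 35.8 CPM with SGC-CBP30, against 64.4 and 64.1 CPM with vehicle, and was 1.78-fold lower (log2 fold change -0.83 ± 0.08, SE; edgeR adjusted p = 2.8e-08). Numb, an endocytic adaptor that antagonises Notch receptors, had 108 and 105 CPM with SGC-CBP30, against 159 and 166 CPM with vehicle (-0.61 ± 0.07; adjusted p = 1e-07). Both genes were clearly separated between the groups. The ligase gene Nedd4 rose to 372 and 406 CPM with SGC-CBP30, against 289 and 293 CPM with vehicle (0.42 ± 0.06; adjusted p = 7.7e-06). The number called in this group was 4 by DESeq2, 5 without vehicle replicate 1 and 4 without vehicle replicate 2.

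Of the 7 other coactivator genes 1 rose and 6 did not pass, 14.3% called against 30.0% of all tested genes. The called gene Ep300, which encodes one of the proteins that SGC-CBP30 binds, had 171 and 186 CPM with SGC-CBP30 and 148 and 154 CPM with vehicle (log2 fold change 0.24 ± 0.07, SE). It did not pass when vehicle replicate 1 (adjusted p = 0.169) or vehicle replicate 2 (0.0618) was left out. With library totals 3 of the 7 were higher, and without SGC-CBP30 replicate 1 2 were. Maml2 and Maml3, the relatives of Maml1, had log2 fold changes of 0.54 ± 0.58 and 0.11 ± 0.17 and did not pass.

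Of 16 corepressor genes 3 rose, 2 fell and 11 did not pass, with a median of 0.13, and the share called was 31.25%, against 30.0% of all tested genes. The RBPJ-binding LIM protein gene Fhl1 had 17 and 13 counts with SGC-CBP30, against 94 and 50 with vehicle (log2 fold change -2.28 ± 0.38, SE; edgeR adjusted p = 4.5e-05), and Tle3, a Groucho-type corepressor that HES proteins recruit, had 25.9 and 26.3 CPM with SGC-CBP30, against 38.3 and 43.8 CPM with vehicle (-0.65 ± 0.10; adjusted p = 2.6e-05). With library totals 7 were higher and 2 lower, without SGC-CBP30 replicate 2 there were 2 higher and 4 lower, and without vehicle replicate 1 there were 1 higher and 2 lower. Without vehicle replicate 2, and in DESeq2, the 2 genes called were both lower.

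Of 13 Hes, Hey and feedback genes 6 were under the filter, Hes3, Hes5, Hes7, Hey1, Hey2 and Heyl, with at most 7 counts in a library. Of the 7 tested, Hes2 and Id2 fell and 5 did not pass, 28.6% called against the background of 30.0%, with a median log2 fold change of -0.25. Hes2, a Hes family gene, had 5.53 and 5.13 CPM with SGC-CBP30, against 7.87 and 10.2 CPM with vehicle (-0.76 ± 0.20, SE), and it did not pass when vehicle replicate 2 was left out (adjusted p = 0.123) or in DESeq2 (0.0614). Id2, an inhibitor of basic helix-loop-helix factors, had 16.7 and 14.6 CPM with SGC-CBP30, against 22.1 and 22.9 CPM with vehicle (-0.52 ± 0.13; edgeR adjusted p = 0.0024). Nrarp, a feedback inhibitor induced by Notch and named after its values were seen, had 4.59 and 2.90 CPM with SGC-CBP30 and 5.44 and 5.95 CPM with vehicle, and did not pass (-0.60 ± 0.26, adjusted p = 0.0782). The number called in this group was 4 without SGC-CBP30 replicate 1, all lower, and 1 without vehicle replicate 2 and by DESeq2.

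Of 13 fate genes 3 rose, 4 fell and 6 did not pass, 53.8% called against a background of 13.6% higher and 16.3% lower, with a median log2 fold change of 0.025. Olfm4, a stem cell marker that depends on Notch in the mouse intestine, had 54.5 and 56.6 CPM with SGC-CBP30, against 205 and 179 CPM with vehicle, and was 3.45-fold lower (-1.79 ± 0.08, SE; edgeR adjusted p = 3e-15). Neurog3, the factor that starts enteroendocrine differentiation, rose to 4.70 and 3.87 CPM with SGC-CBP30, against 1.302 and 1.75 CPM with vehicle (1.49 ± 0.32; adjusted p = 0.00085), on 80 and 68 counts against 23 and 28. The cyclin gene Ccnd1 had 84.3 and 77.1 CPM with SGC-CBP30, against 103 and 101 CPM with vehicle (-0.34 ± 0.07; adjusted p = 0.0011). Atoh1, the secretory fate factor repressed by HES1 and named after its values were seen, had 11.5 and 10.3 CPM with SGC-CBP30 and 10.99 and 10.3 CPM with vehicle, and the groups overlapped (0.025 ± 0.16, adjusted p = 0.932). Without vehicle replicate 1, 1 of the 13 was higher and 3 were lower.

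**Figure D4:**
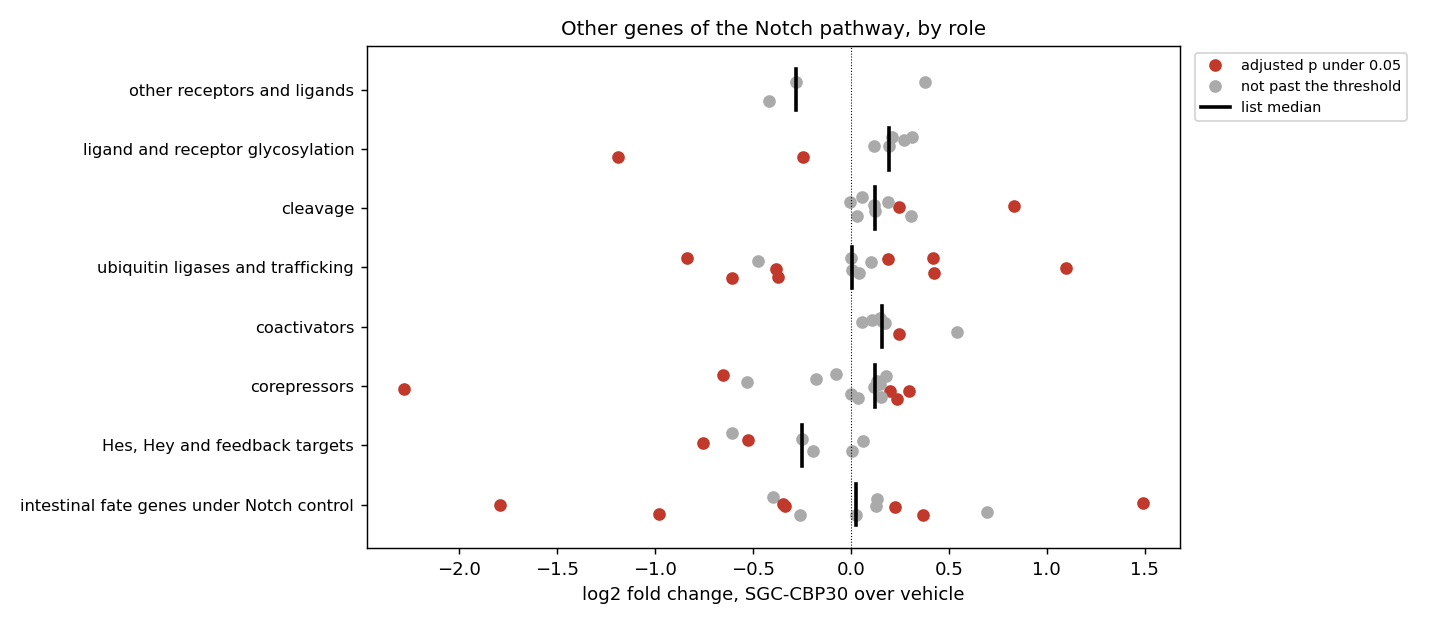
Log2 fold change, SGC-CBP30 relative to vehicle (horizontal axis) for the 75 tested genes of 8 role groups (rows), with a point per gene, red at an adjusted p under 0.05 and grey otherwise, and a black bar at the group median. Called genes lie on both sides of 0 in the ubiquitin ligase, corepressor and fate groups.

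Markers of the lineages that Notch balances moved in part as well. The background was again 30.0% of tested genes called, 13.6% higher and 16.3% lower. Among 5 stem cell markers Lgr5 rose, Olfm4 and Ascl2 fell and 2 did not pass, 60% called. Their summed level was 199 to 209 CPM with SGC-CBP30 and 306 to 338 CPM with vehicle. Olfm4 made the larger part of that level in vehicle, at 205 and 179 CPM, against 54.5 and 56.6 CPM with SGC-CBP30. Lgr5 went the other way, at 45.8 and 50.7 CPM with SGC-CBP30 and 33.7 and 31.8 CPM with vehicle. Smoc2 did not pass but was also higher, at 60.6 and 61.1 CPM with SGC-CBP30 and 55.8 and 54.8 CPM with vehicle. Axin2 overlapped between the groups. The sum thus follows Olfm4 and not the markers as a group. Among 6 absorptive markers 1 rose, 2 fell and 3 did not pass, 50% called. Their summed level was 23658 to 25635 CPM with SGC-CBP30 and 31748 to 32047 CPM with vehicle. The sucrase-isomaltase gene Sis had 6787 and 7781 CPM with SGC-CBP30 and 15129 and 15101 CPM with vehicle. The other 5 markers together had 18848 and 15878 CPM with SGC-CBP30 and 16619 and 16946 CPM with vehicle, and overlapped. Among 19 tested goblet, Paneth, enteroendocrine and tuft cell markers 1 rose, 7 fell and 11 did not pass, 42.1% called. Their summed level was 7654 and 7558 CPM with SGC-CBP30 and 8174 and 7871 CPM with vehicle, without overlap. The Paneth cell markers among them had 2753 and 2628 CPM with SGC-CBP30 and 3411 and 3276 CPM with vehicle. Lyz1 made most of that level, at 1732 and 1710 CPM with SGC-CBP30 and 2281 and 2213 CPM with vehicle. The enteroendocrine markers overlapped, at 572 and 499 CPM with SGC-CBP30 and 529 and 502 CPM with vehicle. The tuft cell markers were lower, at 25.4 and 26.1 CPM against 32.1 and 34.9 CPM. The goblet cell markers went the other way, at 4305 and 4406 CPM with SGC-CBP30 and 4202 and 4058 CPM with vehicle. The part of such shifts in the values of the Notch genes was not tested.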

How the data were processed

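Per the file headers, the authors deposited 1 table of whole-number counts per gene and library, not normalized, with FPKM, group means as a signal on the scale of normalized counts, and a comparison of their own by a test that is not named, as log2 fold change, p-value and adjusted p-value. The deposited FPKM served as an alternative scale for levels, the deposited log2 values and p-values for comparison, and the deposited group mean signal was not used. Per the submitters' processing notes, the tools were featureCounts 1.5.0-p3, StringTie 1.3.3b and HISAT2 2.0.5 and the build mm9, with no roles stated. Gene coordinates in the table are those of GRCm38: 98.5% of 51477 identifiers shared with GENCODE M21 had identical ones, and so had 9 of the 10 Notch genes, Notch3 differing at one end. The table was held in part, ending within a line; 26144 of its 51509 genes have a count. Date-like symbols (27) were restored by gene identifier.

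The whole table was fitted with edgeR 4.0.16 (R 4.3.3): filterByExpr, TMM (factors 1.02 and 1.03 for SGC-CBP30, 0.978 and 0.972 for vehicle), robust quasi-likelihood F test without covariates, Benjamini-Hochberg adjustment over 14684 genes. SE is the log2 fold change divided by the square root of F. DESeq2 1.42.0 was an alternative. The fit was tested on simulated data. Replicates differed by more than counting noise (chi-square per degree of freedom 6.64 for SGC-CBP30, 3.04 for vehicle), so none was counted as a duplicate. Counting intervals are exact at 95% and cover counting error only.

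The Notch genes, the role lists and the markers were chosen with earlier results of these data known, so no list was tested. The text names all 10 Notch genes; in each role list, the up to 3 called genes of smallest p, or, in a list with no call, the gene of smallest p; the 3 genes nearest in profile to the called Notch gene of smallest p in each direction; and others only as stated. One gene that the rule names is not reported here.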

Additional observations from a re-analysis of the deposited data

How the results depend on the processing

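The calls of Notch1, Notch2, Jag1, Dll1 and Maml1 and their directions were kept in all 10 alternative settings run: DESeq2, DESeq2 size factors, library totals, no filter, at least 50 counts in 2 libraries, the replicate block and leaving out each library, where the lone library of a group is assumed to vary like the other group. The number called among the 10 genes was 5 to 6 without 1 library, with Notch3 or Hes1 added. The log2 fold change of Dll4 turned from -0.022 to 0.051 with library totals, 0.15 without SGC-CBP30 replicate 1 and 0.092 without vehicle replicate 2, and that of Rbpj from -0.020 to 0.054, 0.15 and 0.020 under the same settings. Without 1 library the Dll4 value ran from -0.23 to 0.15 and the Rbpj value from -0.22 to 0.15; neither gene was called in any, and the cause was not tested.

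Over all genes, 2722 were called by DESeq2 and 2921 to 4623 without 1 library, against 4401. Over the 75 wider genes, 14 were called by DESeq2 and 15 to 28 without 1 library, against 27. The deviations of same-numbered libraries had a correlation of -0.024 across genes, so no shared deviation was seen. Whether same-numbered libraries share a culture, animal or batch is not given by the labels and cannot be read from that value. With the replicate block, 4703 genes, 29 wider genes and the same 5 Notch genes were called. Ranks of the 10 levels per kilobase were the same with deposited FPKM, DESeq2 size factors and library totals. These scales rescale each library as a whole, so the order of genes within a library could not change. Family shares do not depend on the scale. Depth limits Dll4 and Notch3 most, at 100 to 160 counts per library.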
